A study of Mus musculus with 10 samples.

Results

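The levels of 10 genes of antigen presentation by the major histocompatibility complex (MHC) class I pathway were followed through RNA-seq tables of C2C12 cells, a mouse myoblast line that stops dividing and fuses into myotubes when serum is withdrawn. The genes were taken by name from a list covering the classical heavy chains H2-K1 and H2-D1, the light chain B2m, the peptide transporter genes Tap1 and Tap2, the loading factor Tapbp, the immunoproteasome subunits Psmb8, Psmb9 and Psmb10, and the transactivator Nlrc5, and all 10 were found among the 23460 gene names of the 4 tables. The study depleted the ubiquitin ligase Huwe1, or raised the deubiquitinase USP10, and compared gene expression with control cells. Each table gives 1 value per condition in FPKM, a unit that corrects the fragment number for the length of the transcript and the size of the library, so levels may be compared between genes as well as between conditions, but no difference below has a replicate check and no p-value is given.

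The day 0 cells were wildtype C2C12 in growth medium (1 library) or C2C12 carrying a Huwe1 shRNA (2 libraries, each with its own hairpin, pooled in 1 column). The day 6 cells had the same genotypes and numbers of libraries after 6 days in differentiation medium with horse serum. The day 8 myotubes received either a non-targeting RNA (1 library) or 1 of another pair of Huwe1 shRNAs (2 libraries, pooled), with lentivirus added on differentiation day 4. The USP10 cells carried USP10 cDNA under the EF1a promoter and were collected on day 6 (1 library). The shRNAs were delivered by lentivirus and the cells selected with puromycin, whereas the day 0 and day 6 controls are labelled wildtype, so for these days viral delivery with selection and loss of Huwe1 cannot be told apart. The control column of the USP10 table carries the name of the day 6 control but other values, so which library it came from is not known here. The paper describes C2C12 cells overexpressing USP10 as a stable line, and that control is named wildtype. The making of the line and the raised USP10 cannot be told apart either.

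MHC class I molecules carry short peptides from proteins made inside the cell to its surface, where cytotoxic T cells read them. The proteasome cuts the peptides, the Tap1 and Tap2 transporter moves them into the endoplasmic reticulum, and tapasin helps to load them onto a heavy chain paired with B2m. Interferons raise nearly every step of this pathway and exchange the constitutive catalytic subunits Psmb5, Psmb6 and Psmb7 for Psmb8, Psmb9 and Psmb10, and Nlrc5 drives class I promoters together with the RFX, CREB and NF-Y factors. Skeletal muscle fibers are known for very low class I levels when healthy, and for raised levels in inflammatory muscle disease.

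In build GRCm38, 7 of the 10 genes lie on chromosome 17, in or beside the MHC. H2-K1 spans 33996017 to 34000347 on the minus strand, Tapbp 33915899 to 33929292, Psmb9 34181987 to 34187764 on the minus strand, Tap1 34187553 to 34197225, Psmb8 34197721 to 34201454, Tap2 34203527 to 34216321 and H2-D1 35262730 to 35267499. B2m lies on chromosome 2 from 122147686 to 122153083, where Patl2 overlaps it on the opposite strand with at most 0.628 FPKM in any column. Psmb10 (105935735 to 105938444, minus strand) and Nlrc5 (94434356 to 94527272) lie on chromosome 8.

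Promoter windows of 300 bases, 250 before and 50 after the annotated start, were held for 8 of the 10 genes, all but Tap2 and Nlrc5 (RefSeq, GRCm38.p6). The stretches below are those of the genes that carried the highest levels, and the stretch between the start sites of Tap1 and Psmb9, which are read in opposite directions from 225 shared bases. Capitals mark the letters searched for on both strands: GAAANNGAA and GAANNGAAA (the interferon response type, the second added after the sequences were seen), GGGNNTTNC (the NF-kB type), TGACGC and TGACGT (the X2 or cyclic AMP response type) and CCAAT (the Y box).
H2-K1, chr17:34000334-34000463, minus strand: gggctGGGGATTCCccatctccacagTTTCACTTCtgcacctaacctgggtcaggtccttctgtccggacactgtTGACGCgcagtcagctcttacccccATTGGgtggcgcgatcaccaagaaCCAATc
H2-D1, chr17:35262918-35263093, plus strand: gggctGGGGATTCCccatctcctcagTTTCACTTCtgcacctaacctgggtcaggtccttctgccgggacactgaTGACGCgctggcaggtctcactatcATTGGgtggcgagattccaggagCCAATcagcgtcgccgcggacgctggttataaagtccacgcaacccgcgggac
B2m, chr2:122147543-122147686, plus strand: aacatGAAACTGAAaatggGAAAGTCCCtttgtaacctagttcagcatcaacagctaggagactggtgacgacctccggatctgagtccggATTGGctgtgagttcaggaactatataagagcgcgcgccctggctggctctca
Tap1 and Psmb9, chr17:34187331-34187555, plus strand: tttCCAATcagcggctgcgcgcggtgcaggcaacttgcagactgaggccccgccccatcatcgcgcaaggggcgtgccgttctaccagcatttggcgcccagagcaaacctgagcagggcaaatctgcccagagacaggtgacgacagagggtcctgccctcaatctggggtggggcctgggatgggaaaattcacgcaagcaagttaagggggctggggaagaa
The H2-K1 and H2-D1 stretches read alike: over 203 aligned bases before their start sites they were 88.7% identical, and both held GGGNNTTNC, GAANNGAAA on the opposite strand, TGACGC, and CCAAT on both strands, in the same order. The B2m stretch held the other spacing, GAAANNGAA, beside GGGNNTTNC and CCAAT on the opposite strand. Tap1 and Psmb9 shared 1 CCAAT, Tapbp had 2 matches to CCAAT, and none of these letters was found in the windows of Psmb8 and Psmb10. TGACGT had 0 matches in the 8 windows. Among all 32851 promoter windows of the same length, 8.56% held GAAANNGAA, 7.52% GAANNGAAA, 15.2% GGGNNTTNC, 7.40% TGACGC, 7.51% TGACGT and 37.4% CCAAT, so several of these matches are common letters, and they are a description of the windows only.

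**Figure D1:**
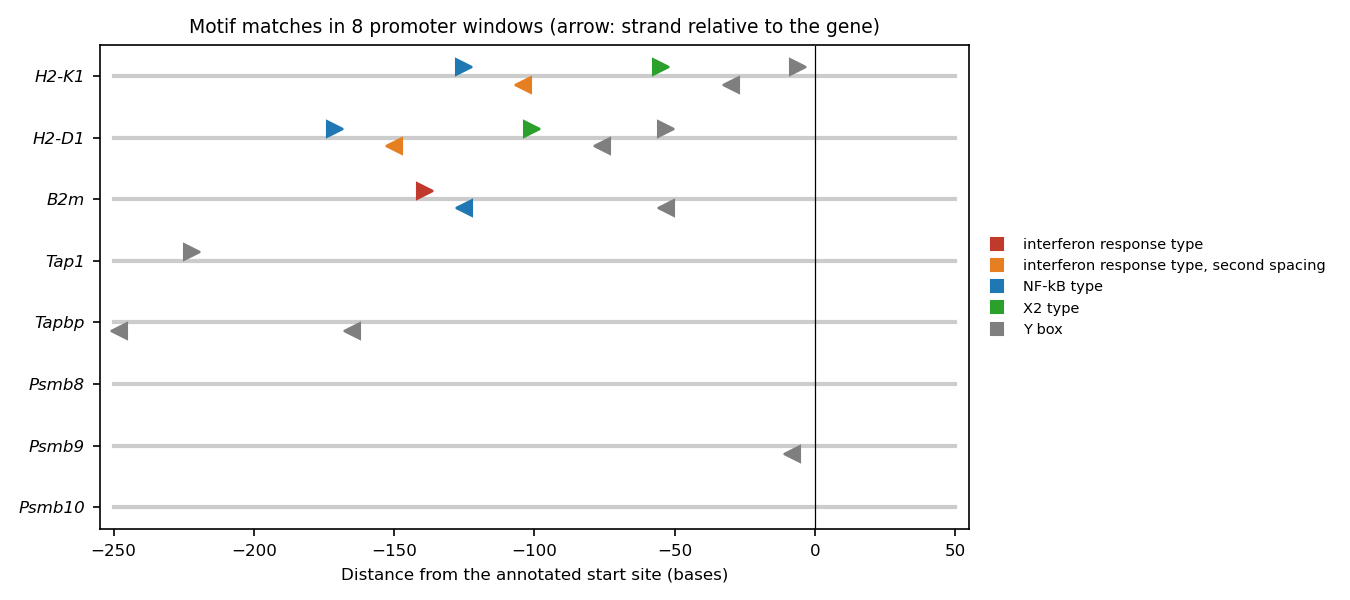
Positions of the motif matches in the promoter windows of 8 genes, with the distance from the annotated start site in bases on the x axis and 1 row per gene. Arrows pointing right are on the gene's own strand and arrows pointing left on the opposite strand, and H2-K1 and H2-D1 show the same series of matches, shifted by the distance of their start sites.

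The tables were first checked for the targeted genes and for the cell type. Huwe1 was lower in each knockdown column, at 38.3 FPKM in control cells against 15.2 FPKM in knockdown cells on day 0. It was 35.1 and 21.9 FPKM on day 6, and 55.4 and 33.0 FPKM on day 8. Usp10 was 10.3 FPKM in control cells against 38.3 FPKM in USP10 cells. In the Huwe1 tables Usp10 was 68.5 and 64.2 FPKM on day 0, 13.2 and 35.4 FPKM on day 6, and 14.5 and 13.1 FPKM on day 8. Its RNA level in the USP10 cells was thus not above that of day 0, and was near that of the day 6 knockdown, across separately normalized tables. The paper probed USP10 protein in overexpressing myoblasts by western blot and flow cytometry, which these values do not measure. The muscle genes Myod1, Myog, Des, Ckm, Myh3, Acta1, Tnnt1 and Tnnc1 summed to 377 FPKM for the day 0 control and 14162 FPKM for that of day 6. The macrophage gene Emr1 was listed at 0 in every column and the leukocyte gene Ptprc reached at most 0.0102 FPKM. Cd68 of the same marker list reached 4.65 FPKM, in the control of the USP10 table, and is given with the other markers below. Depth was estimated from the lowest values of a column, and was 22000000 (day 0 control), 30100000 (day 6 control), 18000000 (day 8 control), 7800000 (control of the USP10 table) and 27700000 (USP10) fragments.

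In Huwe1 knockdown cells at day 6, the 9 genes above 0 in both columns were all higher than in the control of the same table. Psmb9 was listed at 0 in that control and had 0.2998 FPKM in the knockdown. B2m was 9.10-fold, H2-K1 6.08-fold, Tap1 4.40-fold, H2-D1 2.83-fold, Tap2 2.59-fold and Psmb10 2.15-fold above control, Tapbp was 1.53-fold above it, and Psmb8 and Nlrc5, nearly absent from the control, reached 1.13 and 1.46 FPKM. Of the 10 genes, 9 had at least 1 FPKM in 1 of the columns, 8 of those 9 were at least 2-fold higher and 0 were 2-fold lower, while 17.6% of all 11695 genes with at least 1 FPKM were 2-fold higher and 13.4% were 2-fold lower. Psmb8, Tap1 and Nlrc5 entered this count only through the knockdown column. With at least 1 FPKM required in both columns, 5 of 6 members were 2-fold higher, against 12.5% of 10292 genes. The median log2 ratio of the 9 was 2.10 and that of all genes -0.01. Against the control of the USP10 table, centred on the median gene, the median of the members was 0.80, as given below.

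The heavy chains form the peptide groove of the class I molecule. H2-K1 had 43.3 FPKM in control cells against 25.8 FPKM in knockdown cells at day 0, 11.4 and 69.0 FPKM at day 6, 11.04 and 17.8 FPKM at day 8, and 27.3 and 118 FPKM in the USP10 table. Its lowest values were the day 6 and day 8 controls, which were nearly equal, and its highest were the 2 treated day 6 columns. H2-D1 had 63.7 and 40.6 FPKM at day 0, 32.4 and 91.8 FPKM at day 6, 23.2 and 41.7 FPKM at day 8, and 55.7 and 85.4 FPKM in the USP10 table, with its lowest values in the day 6 and day 8 controls as well. H2-D1 exceeded H2-K1 in 7 of the 8 columns, and the exception was the USP10 cells. Since the longest coding transcripts of the pair were 91.2% identical over 1470 aligned bases, and 8.79% of the 50-base windows of H2-K1 and 14.3% of those of H2-D1 also occurred in transcripts of other genes, reads may be divided between them with error. C2C12 cells come from another mouse strain than the reference genome, and the class I heavy chains are among the most variable genes between strains. How this moved their levels was not tested.

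B2m is the invariant light chain, without which most heavy chains do not reach the cell surface. Its values were 241 FPKM in control cells against 276 FPKM in knockdown cells at day 0, 136 and 1242 FPKM at day 6, 139 and 235 FPKM at day 8, and 402 and 1195 FPKM in the USP10 table. It was the highest of the 10 genes in every column, and in level among all genes it stood at rank 666 in the day 6 control and rank 35 in the day 6 knockdown. None of its 50-base windows occurred in another gene's transcripts. B2m amounted to 3.12 times the summed heavy chains H2-K1 and H2-D1 in the day 6 control and 7.72 times in the knockdown. There the light chain differed more than its partners. This ratio was also higher in the knockdown at day 0, at 2.25 in the control and 4.14 in the knockdown. At day 8 it was 4.06 in the control and 3.95 in the knockdown. In the USP10 table it was 4.85 in the control and 5.87 in the USP10 cells.

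**Figure D2:**
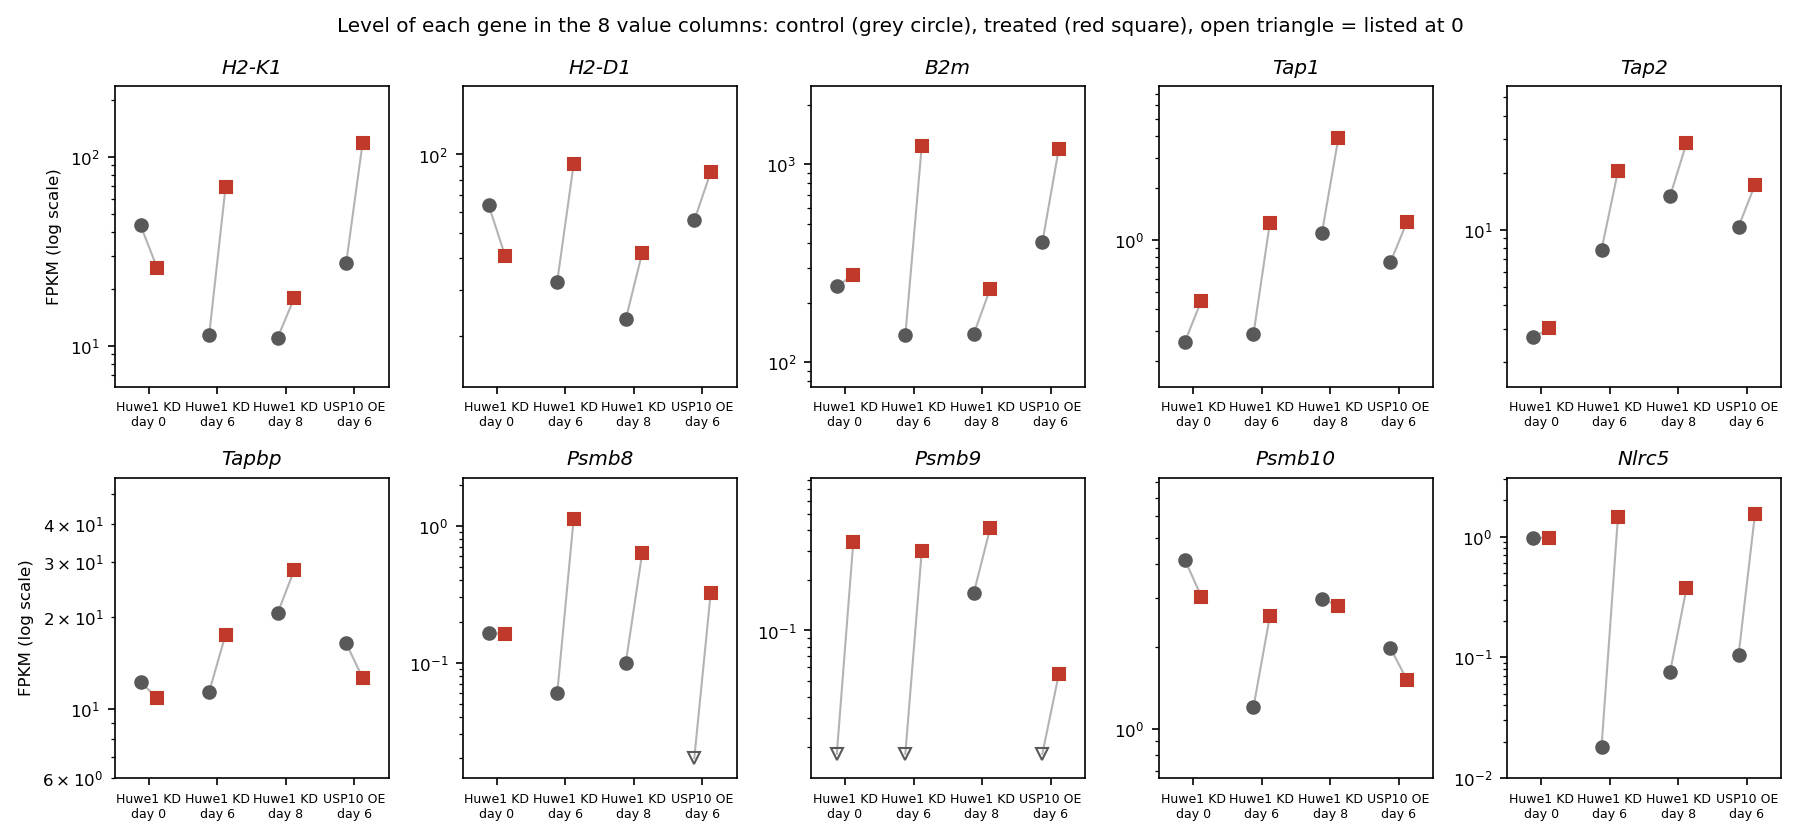
FPKM (log axis, a separate scale per gene) of the 10 genes in the 8 columns, grey circles for controls and red squares for treated cells, with 1 value per column and therefore no error bars; open triangles mark values listed at 0. The day 6 knockdown squares stand above their controls in all 10 panels, while at day 0 H2-K1, H2-D1, Tapbp and Psmb10 lie below them by 0.17 log2 units or more.

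The transporter genes differed in level and in size of change. Tap1 had 0.259 FPKM in control cells against 0.448 FPKM in knockdown cells at day 0, 0.286 and 1.26 FPKM at day 6, 1.10 and 3.88 FPKM at day 8, and 0.747 and 1.27 FPKM in the USP10 table. Tap2, its partner in the transporter, had 2.71 and 3.02 FPKM at day 0, 7.86 and 20.4 FPKM at day 6, 15.0 and 28.6 FPKM at day 8, and 10.4 and 17.3 FPKM in the USP10 table. Tap2 was thus at the higher level in every column, 27.5 times Tap1 in the day 6 control and 16.2 times in the day 6 knockdown. About 25 fragments stood behind the Tap1 value of the day 6 control. Counting error of that control value alone gave the 4.40-fold difference an exact Poisson interval (95%) of 2.98 to 6.81. The interval leaves out error in the knockdown value and differences between controls. Both genes reached their highest level in the day 8 knockdown rather than at day 6, unlike the heavy chains and B2m.

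Tapbp encodes tapasin, which holds the empty heavy chain at the transporter. It varied least, from 10.9 to 28.2 FPKM over the 8 columns, with 11.4 FPKM in control cells against 17.5 FPKM in knockdown cells at day 6 and 16.4 and 12.7 FPKM in the USP10 table. Of its 50-base windows, 21.0% occurred in other genes' transcripts.

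The immunoproteasome subunits were rare. Psmb8, the counterpart of Psmb5, had 0.164 FPKM in control cells against 0.163 FPKM in knockdown cells at day 0, 0.0597 and 1.13 FPKM at day 6, 0.0995 and 0.632 FPKM at day 8, and 0 and 0.323 FPKM in the USP10 table. About 3 fragments lay behind its day 6 control value, and the 18.98-fold difference had a Poisson interval of 6.49 to 92.0. Psmb9, the counterpart of Psmb6, never reached 0.5 FPKM: it was listed at 0 in the controls of day 0, day 6 and the USP10 table, and had 0.337, 0.2998 and 0.0546 FPKM in the treated cells beside them, and 0.168 FPKM in control cells against 0.412 FPKM in knockdown cells at day 8. For scale, 3 fragments of Psmb9 would be worth 0.0738 FPKM in the day 6 control, and no fold is given against a value of 0. Psmb10, the counterpart of Psmb7, was the most abundant of the trio, with 4.16 and 3.04 FPKM at day 0, 1.20 and 2.58 FPKM at day 6, 2.995 and 2.81 FPKM at day 8, and 1.97 and 1.51 FPKM in the USP10 table. Its day 6 knockdown value was below both values of day 0, and its day 6 control was the lowest of the 8 columns.

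The constitutive counterparts stood far above them, and were lower in the day 6 knockdown than in the control of the same table. Psmb5 had 91.8 FPKM in control cells against 51.1 FPKM in knockdown cells, Psmb6 183 and 114 FPKM, and Psmb7 327 and 193 FPKM, none of them 2-fold lower. The control of the USP10 table had 47.9, 123 and 253 FPKM of these genes, so Psmb5 was not lower in the knockdown than in that column. The summed immunoproteasome subunits amounted to 0.209% of the summed counterparts in the day 6 control and 1.12% in the knockdown. At day 0 these shares were 0.822% and 0.757%, at day 8 0.598% and 1.00%, and with USP10 0.466% and 0.509%. Constitutive transcripts thus made up nearly all of the catalytic subunit messages in every column.

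**Figure D3:**
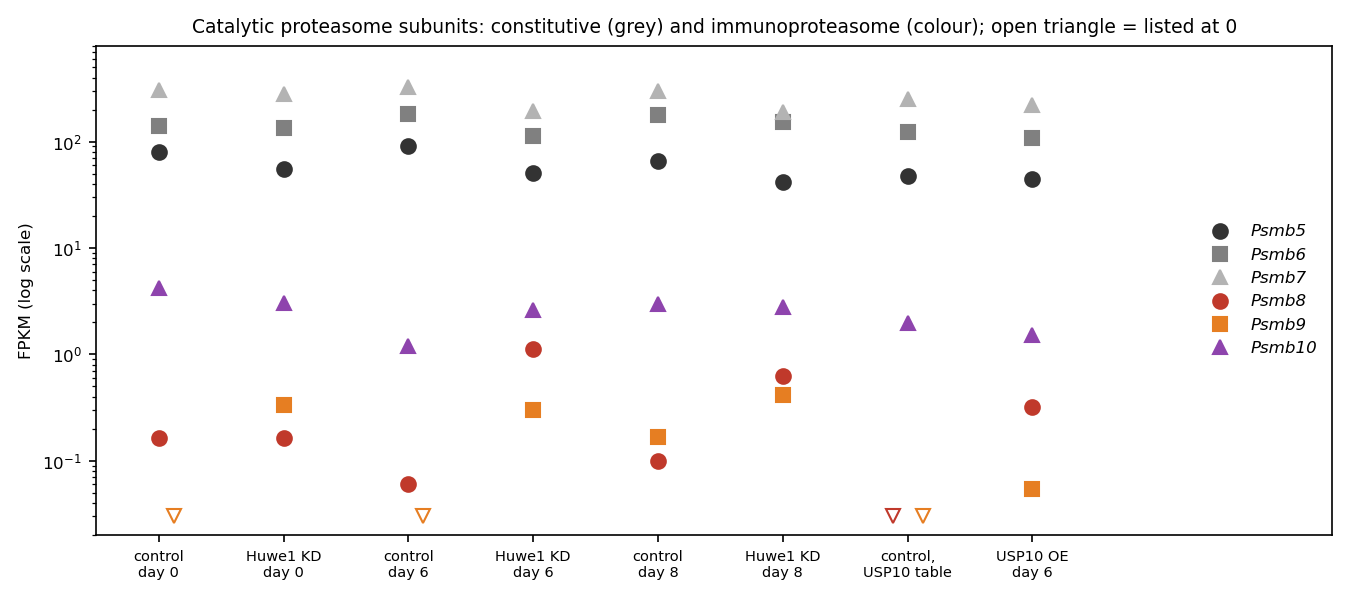
FPKM (log axis) of the constitutive catalytic subunits Psmb5, Psmb6 and Psmb7 (grey) and of Psmb8, Psmb9 and Psmb10 (colour) in the 8 columns, 1 value each; open triangles are values listed at 0. The grey points lie between 42.0 and 327 FPKM and the coloured ones at or below 4.16 FPKM.

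Nlrc5 switches on class I promoters through DNA-binding partner factors. It had 0.974 FPKM in control cells against 0.979 FPKM in knockdown cells at day 0, 0.0181 and 1.46 FPKM at day 6, 0.0752 and 0.371 FPKM at day 8, and 0.104 and 1.54 FPKM in the USP10 table. The day 0 cells, with or without Huwe1, thus held less Nlrc5 than the treated day 6 cells and more than any differentiated control. The day 6 control value rests on about 4 fragments, so the 80.7-fold difference carried a Poisson interval of 31.5 to 296, and the 14.8-fold difference in the USP10 table one of 6.81 to 40.4. These intervals cover counting error in the control column only.

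In day 0 myoblasts, the 9 genes above 0 in both columns were within 2-fold of control, and Psmb9 was listed at 0 in the control and had 0.337 FPKM in the knockdown. H2-K1 was 1.68-fold lower and H2-D1 1.57-fold lower, log2 ratios of -0.75 and -0.65, and B2m was 1.14-fold higher. Of the 6 genes with at least 1 FPKM, 0 were 2-fold higher and 0 lower, against 1.90% and 1.69% of all 10874 genes, and their median log2 ratio was -0.31 beside 0.00 for all genes. Day 0 ratios were narrowly spread, and 96.6% of genes had a higher ratio than H2-K1 and 95.6% a higher one than H2-D1. The remaining pathway genes at day 0 had log2 ratios of 0.16 for Tap2, -0.17 for Tapbp, -0.45 for Psmb10, 0.01 for Nlrc5, -0.01 for Psmb8 and, at under 0.5 FPKM, 0.77 for Tap1.

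In day 8 myotubes, depleted of Huwe1 only after they had formed, 9 of the 10 genes were higher than in control and Psmb10 was at a log2 ratio of -0.09, or 0.30 with the housekeeping centring below. Tap1 was 3.52-fold higher (Poisson interval 2.73 to 4.62), Tap2 1.91-fold, H2-D1 1.80-fold, B2m 1.69-fold, H2-K1 1.61-fold and Tapbp 1.38-fold. Among the 7 with at least 1 FPKM, only Tap1 was 2-fold higher and 0 were 2-fold lower, against 7.89% and 10.0% of all 11755 genes, and the median log2 ratio was 0.76 beside 0.00 for all genes. Psmb8 and Nlrc5, below 1 FPKM in both columns, were 6.35-fold and 4.94-fold higher, with intervals of 2.17 to 30.8 and 2.69 to 10.3. The count at day 8 depends on scaling: with log2 ratios centred on 15 housekeeping genes, whose median was -0.39, 5 genes were 2-fold higher. This centring moves all genes alike, and the share of all genes 2-fold higher under it was not computed. The count of 5 is therefore not a result about these genes.

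In USP10 cells at day 6, the higher genes were H2-K1 at 4.33-fold, B2m at 2.97-fold and Nlrc5 at 14.8-fold above the control of their table. H2-D1 was 1.53-fold, Tap1 1.70-fold and Tap2 1.67-fold higher, whereas Tapbp and Psmb10 were 1.29-fold and 1.31-fold lower (log2 ratios of -0.37 and -0.38, which turned to 0.16 and 0.34 against the control of the day 6 table). Of the 8 genes with at least 1 FPKM, 3 were 2-fold higher and 0 lower, against 9.70% and 10.0% of all 11482 genes, and the median log2 ratio was 0.75 beside 0.05. With at least 1 FPKM in both columns, 2 of 6 were 2-fold higher, against 7.12% of 10400 genes. Psmb8 was listed at 0 in the control and had 0.323 FPKM in the USP10 cells, about 15 fragments.

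**Figure D4:**
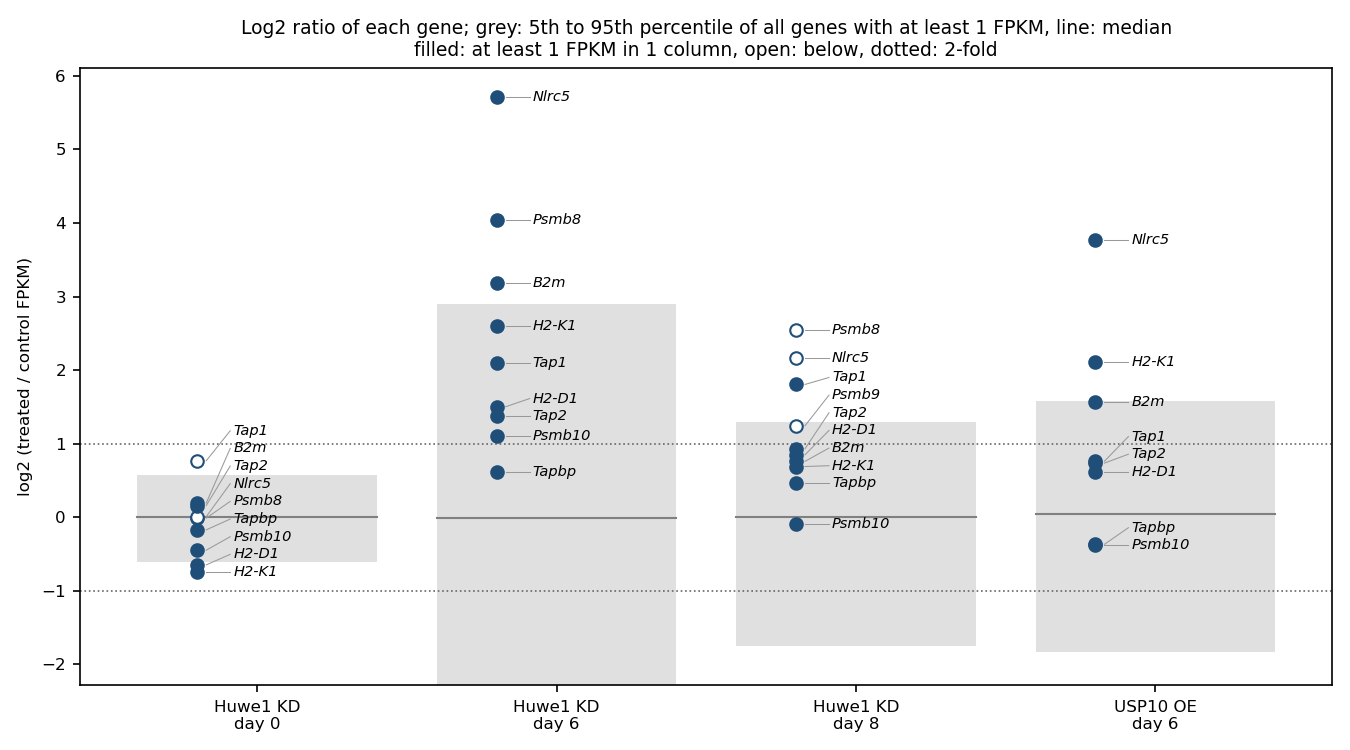
Log2 ratio of treated to control FPKM (y axis) of each gene in the 4 comparisons, filled for genes with at least 1 FPKM in a column and open for those below; grey bars span the 5th to 95th percentile of all genes and dotted lines mark 2-fold. Nlrc5, Psmb8 and B2m lie above the bar at day 6, ratios at day 0 stay between -0.75 and 0.77, and genes with a value of 0 have no point.

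The 2 day 6 control columns measure how far controls alone can differ. From the control of the day 6 table to that of the USP10 table, B2m was 2.95-fold, Tap1 2.61-fold, H2-K1 2.41-fold, H2-D1 1.72-fold, Psmb10 1.65-fold, Tapbp 1.44-fold and Tap2 1.32-fold higher, and Nlrc5, at a few fragments on each side, 5.76-fold. All 8 genes above 0 in both columns were higher in the second control, and of 6 with at least 1 FPKM 2 were 2-fold higher and 0 lower, against 11.2% and 8.66% of 11459 genes. The tables were normalized separately, and the median gene moved by -0.07 on the log2 scale between these columns. For B2m, the difference between the controls is as large as the ratio of USP10 cells to their control (2.97-fold). It is smaller than the ratio of knockdown cells to the control of the day 6 table (9.10-fold), the lower of the 2 controls. When the knockdown was set against the control of the USP10 table instead, with both columns centred on the median gene, 4 genes were 2-fold higher. The median log2 ratio was then 0.80, with H2-K1 at 1.28, B2m at 1.57 and Tapbp at 0.04. The share of all genes 2-fold higher was not computed for this pair of columns. Centred on the median gene, the 2 controls differed in B2m by 1.63, so against this control the B2m ratio did not exceed the gap between controls.

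**Figure D5:**
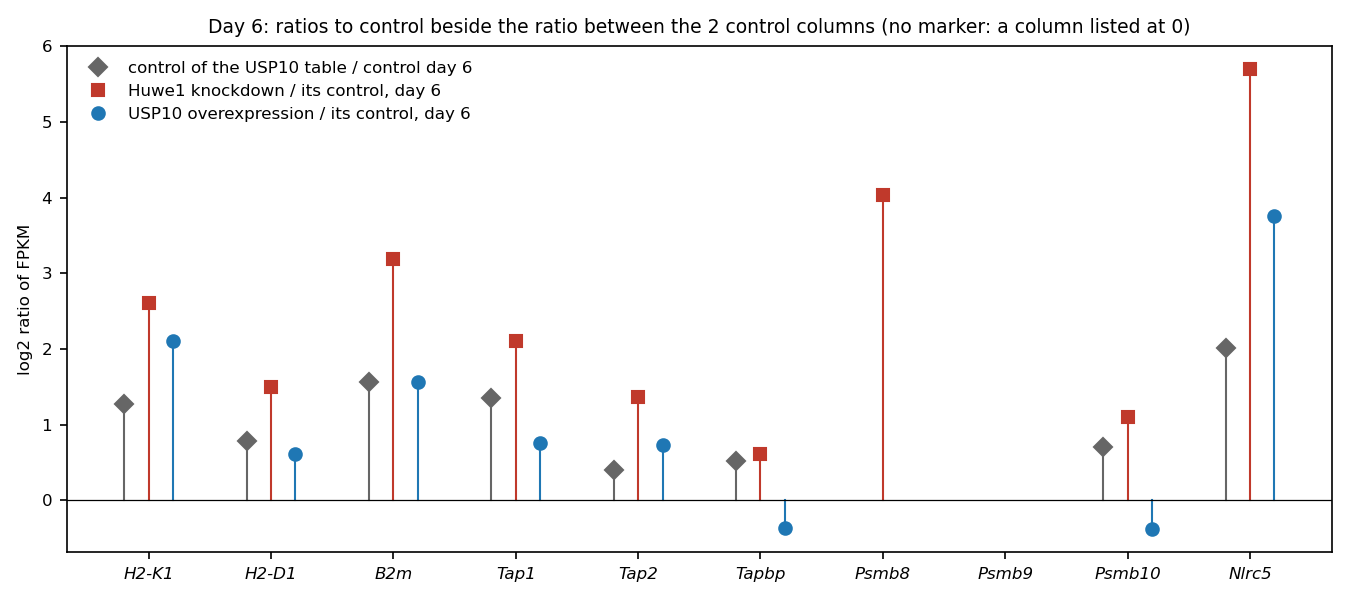
Log2 ratios at day 6 for each gene: the control of the USP10 table over the day 6 control (grey diamonds), Huwe1 knockdown over its control (red squares) and USP10 over its control (blue circles), 1 value each. For B2m the grey diamond and the blue circle stand at the same height, 1.56 and 1.57, and the red square at 3.19; Psmb8 has 1 marker and Psmb9 none because of values listed at 0.

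Along differentiation of control cells, set side by side from separate tables, class I genes did not share 1 direction. From day 0 to day 6, H2-K1 was 3.82-fold lower, Psmb10 3.47-fold lower, H2-D1 1.97-fold lower, B2m 1.77-fold lower and Nlrc5 53.9-fold lower, while Tap2 was 2.90-fold higher and Tapbp 1.08-fold lower. These values depend on which day 6 control is used: with the control of the USP10 table, B2m was 1.67-fold higher than at day 0, H2-D1 1.14-fold lower, H2-K1 1.59-fold lower, Psmb10 2.11-fold lower, Nlrc5 9.36-fold lower, and Tap2 3.83-fold and Tapbp 1.33-fold higher. From day 0 to the control of the day 6 table, 1 of 6 genes with at least 1 FPKM was 2-fold higher and 2 were 2-fold lower, when 21.5% and 23.2% of all genes were. In day 8 control myotubes compared with day 0, Tap1 (4.26-fold) and Tap2 (5.54-fold) were higher, and H2-K1 (3.93-fold) and H2-D1 (2.75-fold) lower. These were 2 genes each way of 7, beside 20.0% and 15.7% of all genes, and Tap1 entered only through the day 8 column. In Huwe1 knockdown cells, from day 0 to day 6, the heavy chains and B2m were higher, the opposite of the control of the day 6 table: H2-K1 was 2.67-fold, H2-D1 2.26-fold and B2m 4.50-fold above day 0. In all, 6 of 9 genes were 2-fold higher and 0 lower along this path, beside 19.1% and 16.9% of all genes. Tap1, Psmb8 and Nlrc5 entered this count only through the day 6 column, Tap1 and Psmb8 among the 2-fold higher genes.

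Genes beside these 10 in the pathway were counted by lists. Each count reads against the all-gene shares given above, which for 2-fold higher were 1.90% at day 0, 17.6% at day 6, 7.89% at day 8 and 9.70% with USP10. Of 17 other class I and class I-like heavy chains, 13 had at least 1 FPKM at day 6, and 10 were 2-fold higher in the knockdown and 1 lower (Hfe, an iron regulator with a class I fold, at 1.85 and 0.582 FPKM), with a median log2 ratio of 2.15, and H2-T24 and H2-M3 entered only through the knockdown column. H2-Q4 was 3.601 FPKM in control cells against 28.7 FPKM in knockdown cells, and H2-T23, the mouse Qa-1 molecule read by natural killer cells, 4.02 and 24.5 FPKM. With USP10, 4 of 12 were 2-fold higher and 0 lower, of which H2-T22 entered from a value of 0 in the control (1.68 FPKM in USP10 cells), with H2-Q4 at 6.69 and 25.3 FPKM and H2-T23 at 10.5 and 24.1 FPKM. At day 8 it was 3 of 12 and 0 lower, H2-Q7 at 1.85 and 9.64 FPKM, and H2-M3 (0.706 and 3.98 FPKM) and Hfe (0.701 and 2.10 FPKM, the other direction than at day 6), which both entered only through the knockdown column. H2-T22, at 1.72 and 3.42 FPKM, was just under 2-fold. At day 0 it was 1 of 10 and 0 lower, H2-T9 at 2.20 and 5.49 FPKM, while H2-Q6 was 5.22 and 3.14 FPKM. These genes are close copies of each other, so their separate values carry the same uncertainty as H2-K1 and H2-D1.

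Chaperones and trimming enzymes of class I loading stayed within 2-fold at day 6: of 6, 0 were higher and 0 lower. Calr, the chaperone calreticulin, was 765 FPKM in control cells against 413 FPKM in knockdown cells, and Tapbpl, a relative of tapasin, 5.18 and 3.505 FPKM. With USP10, 1 of 6 was 2-fold lower, again Calr at 1257 and 387 FPKM, and 0 were higher, with Lnpep, a peptide-trimming protease, at 21.1 and 15.3 FPKM. At day 0 and day 8 it was 0 of 6 in each direction, with Calr at 535 and 652 FPKM and Canx at 260 and 303 FPKM at day 0, and with Erap1, which trims peptides in the endoplasmic reticulum, at 4.86 and 7.91 FPKM and Tapbpl at 5.26 and 4.77 FPKM at day 8.

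Among 5 proteasome activators and assembly factors, 1 was 2-fold higher at day 6 and 0 lower, a share near that of all genes (17.6%). That gene was Psme1, a subunit of the interferon-inducible PA28 activator, at 23.1 and 53.2 FPKM, while Psme4 was 57.4 and 35.4 FPKM. In the other comparisons 0 of 5 passed 2-fold in either direction. Psme2, the partner of Psme1, was 21.5 and 25.3 FPKM at day 0, 27.5 and 20.6 FPKM at day 8 and 23.8 and 15.8 FPKM in the USP10 table. Psme4 was 47.1 and 40.6 FPKM at day 0 and 76.7 and 59.8 FPKM at day 8, and Psme1 32.8 and 43.6 FPKM in the USP10 table. Of the constitutive subunits 0 of 3 passed in any comparison, with Psmb5 at 79.9 and 55.6 FPKM at day 0, 65.8 and 42.0 FPKM at day 8 and 47.9 and 44.1 FPKM in the USP10 table.

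Transcription factors of class I promoters were counted next. At day 6, 4 of 18 with at least 1 FPKM were 2-fold higher and 0 lower, near the share of all genes (17.6%), among them Irf1 at 3.98 and 13.0 FPKM, Irf7 at 0.156 and 7.25 FPKM (through the knockdown column only) and Irf9 at 2.70 and 15.1 FPKM. The factors with which Nlrc5 works were close to control, Rfx5 at 2.22 and 2.73 FPKM, and Ciita, the class II counterpart of Nlrc5, was at 0.0249 and 0 FPKM. With USP10, 3 of 18 were 2-fold higher and 0 lower. Among them were Irf7 at 0.525 and 3.22 FPKM (through the USP10 column only) and Irf9 at 2.75 and 9.51 FPKM. There Irf1 was 6.65 and 8.60 FPKM and Rfx5 2.64 and 2.06 FPKM. At day 8, 2 of 17 were 2-fold higher and 0 lower, among them Irf9 at 3.71 and 12.3 FPKM, with Irf1 at 9.20 and 10.6 FPKM and Rfx5 at 3.92 and 6.23 FPKM. At day 0, 0 of 17 passed in either direction, Irf1 was 12.7 and 10.3 FPKM, and the largest ratios were those of Stat2 (5.48 and 4.04 FPKM) and Stat3 (18.5 and 14.1 FPKM).

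A list of 15 interferon-stimulated genes outside the pathway, which overlaps the list of factors (Irf7, for example), was counted in the same way. At day 6, 13 had at least 1 FPKM and all 13 were 2-fold higher, most of them entering through the knockdown column, as for Isg15, a ubiquitin-like modifier (0.662 and 22.3 FPKM). Of the list, Irgm1 was 4.42 and 19.0 FPKM. With USP10, 9 of 11 were 2-fold higher and 0 lower. Most of these 9 entered only through the USP10 column, though not Isg15 (1.91 and 13.3 FPKM). At day 8 it was 2 of 4 and 0 lower, of which Igtp (0.613 and 1.39 FPKM) entered only through the knockdown column. Isg15 was 3.67 and 6.62 FPKM there. At day 0 it was 0 of 3 in either direction (Isg15 at 1.89 and 2.26 FPKM, Irgm1 at 14.4 and 16.4 FPKM). The ligands themselves were hardly seen: of 11 interferon and cytokine genes in the tables, 0 reached 1 FPKM at day 0 or day 6. Ifnb1 was listed at 0 in both columns of day 0, day 6 and the USP10 table and at 0 and 0.0441 FPKM at day 8, and Ifng had at most 0.131 FPKM, in the USP10 cells. At 1 FPKM or more were only Il6 at day 8 (1.38 and 1.23 FPKM) and Il1b in the USP10 table (2.71 and 0.351 FPKM, 2-fold lower).

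Receptors and kinases of interferon signalling were mostly present at every stage. At day 6, 1 of 8 was 2-fold higher and 0 lower, when 17.6% of all genes were higher: Ifngr1, the binding chain for interferon gamma, at 11.7 and 33.6 FPKM, and Jak1 was 33.1 and 61.4 FPKM. At day 8, 2 of 8 were 2-fold higher and 0 lower, Jak2 at 10.3 and 31.3 FPKM and the feedback inhibitor Socs3 at 9.90 and 44.1 FPKM. At day 0, 0 of 9 passed in either direction, with Socs1, another feedback inhibitor, at 3.93 and 2.23 FPKM and Jak2 at 10.1 and 14.4 FPKM. In the USP10 table it was 0 of 8, with Ifngr2 at 12.3 and 6.36 FPKM and Ifnar2 at 75.8 and 49.2 FPKM. MHC class II was not seen as a system: H2-Aa and H2-Eb1 were listed at 0 in all columns, and of 7 class II genes 0 were 2-fold higher or lower among those with at least 1 FPKM in any comparison. The highest was H2-DMa, a peptide exchange factor, at 2.17 and 3.78 FPKM in the USP10 table, where Cd74 was 1.38 and 1.00 FPKM.

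Markers of other cells and of muscle were set beside these results. Of the leukocyte list 1 of 9 genes reached 1 FPKM at day 6, Cd68, a lysosomal gene not limited to macrophages, at 1.476 and 1.352 FPKM, and the list summed to 1.84 FPKM in control cells against 1.61 FPKM in knockdown cells. In the other tables these sums were 0.842 and 1.45 FPKM at day 0, 1.12 and 2.55 FPKM at day 8 and 4.97 and 2.18 FPKM in the USP10 table, with Cd68 there at 4.65 and 2.09 FPKM. Most of each sum came from Cd68. Of 5 endothelial genes, Cdh5, which encodes VE-cadherin, was 13.5 and 11.2 FPKM at day 0, 0.0241 and 6.83 FPKM at day 6, and 0.278 and 6.81 FPKM in the USP10 table, with Tek at 0.0616 and 1.08 FPKM at day 6. The other three were at or near 0 (Pecam1 at most 0.346, Tie1 at most 0.0138 and Kdr at most 0.0420 FPKM), and the list summed to 13.6 and 11.4 FPKM at day 0, 0.106 and 7.92 FPKM at day 6, 0.172 and 0.387 FPKM at day 8, and 0.781 and 7.31 FPKM in the USP10 table. Muscle genes were lower: 7 of 8 were 2-fold lower at day 6 (Myog, a myogenic transcription factor, at 619 and 27.1 FPKM, and slow troponin Tnnt1 at 1844 and 128 FPKM), 7 of 8 at day 8 (Myh3 at 1218 and 45.4 FPKM, Ckm at 306 and 37.2 FPKM), 5 of 8 in the USP10 table (Myog at 305 and 28.8 FPKM, Tnnt1 at 813 and 53.3 FPKM) and 2 of 5 at day 0, Myod1 at 21.7 and 9.30 FPKM and Tnnt1 at 2.58 and 0.616 FPKM, with Des just under 2-fold at 345 and 173 FPKM. The sum over the muscle list was 14162 and 2886 FPKM at day 6, 12020 and 3157 FPKM at day 8, 6899 and 3308 FPKM in the USP10 table and 377 and 194 FPKM at day 0. Their part in the class I values was not tested, and fewer cells of a kind and less RNA per cell cannot be told apart in such cultures.

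The median course of the 10 genes over the 8 columns, on the log2(FPKM + 1) scale centred per gene, was compared with 7406 genes that had at least 5 FPKM in a column and a range of at least 1 log2 unit. The most similar by Pearson r were Atrnl1 (0.989), Isg15 (0.985), Gm14325 (0.973), Plscr4 (0.967) and Nacc2 (0.967), over 8 columns that include pooled libraries and separately normalized tables. Atrnl1 was 5.35, 4.92, 3.20, 17.6, 5.47, 9.13, 6.67 and 11.8 FPKM in the order control then treated for day 0, day 6, day 8 and USP10. The 10 genes themselves followed their own median course unequally, from r = 0.098 for Psmb10 and 0.417 for Tapbp to 0.835 for B2m and 0.839 for Psmb8.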

How the data were processed

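RNA of 10 C2C12 libraries had been purified on oligo(dT), prepared with the directional ScriptSeq v2 kit and sequenced on an Illumina HiSeq. The authors mapped reads with Tophat, and the submitters' processing notes name Bowtie2, Cuffdiff and mm10. Versions are not given in the sources used here. The deposited FPKM values are scaled by Cuffdiff to transcript length and library size, separately in each of 4 tables, with 23417 to 23431 gene rows and the Huwe1 knockdown libraries pooled. The deposited fold changes, test scores, p-values and q-values were not used.

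Log2 ratios were computed within a table after adding 0.01 FPKM, which understates changes of low genes, and genes with at least 1 FPKM in 1 of the columns were counted at 2-fold or more. With 1 value per condition no test was possible. Depth was estimated from the lowest values of 2215 single-transcript genes, and the pooled knockdown columns gave no estimate. Intervals are exact Poisson intervals of estimated control fragments and cover counting error only, since PCR copies are not independent molecules. Ratios and depth estimates were tested on simulated data. The 10 genes and 13 lists were chosen with earlier results of these data known. From each list the text names the pair with the largest absolute log2 ratio among those reaching 1 FPKM in each column, plus Psmb5, Psmb6, Psmb7, Irf1, Rfx5, Ciita, Ifng and Ifnb1. Emr1, Ptprc, H2-Aa, H2-Eb1, Hfe, H2-T24, H2-M3, Tnnt1 (day 0), Irf7, Il1b, Isg15, Igtp (day 8), Cdh5, Tek, Pecam1, Tie1 and Kdr were added after their values were seen. Positions and transcripts are from GENCODE vM21 (GRCm38), promoters from RefSeq. Some genes of the lists are counted but not reported here by name. A planned comparison of protein sequences was not run. The 10 alternatives varied the pseudocount (0.1, 1), the minimum (5 FPKM, both columns, none), centring, fold, test status and control column. Python 3.11.15, numpy 2.4.6 and pandas 2.3.3 were used.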

Additional observations from a re-analysis of the deposited data

Results flagged for a closer look

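The heavy chains had opposite directions in knockdown cells at different stages. For H2-K1, the log2 ratio of knockdown to control was -0.75 at day 0 and 2.60 at day 6, a difference of 3.35, and the day 8 ratio of 0.69 differed from day 0 by 1.43. For H2-D1 the ratios were -0.65 at day 0, 1.50 at day 6 and 0.85 at day 8, differences of 2.15 and 1.50 from day 0. Each condition has 1 value, and the differences were not tested. The 8 other genes gave no such pair with both ratios at least 0.5 log2 units from 0 in opposite directions.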

How the results depend on the processing

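Signs turned for 4 single ratios, none of them 2-fold: Psmb8 at day 0 (-0.01 to 0.07) and Psmb10 at day 8 (-0.09 to 0.30) with housekeeping centring, and Tapbp (-0.37 to 0.16) and Psmb10 (-0.38 to 0.34) with USP10 against the other day 6 control. Of 114 recomputed counts and medians 98 stayed within the limits used (1.5 times for counts, 0.56 log2 units for ratios, the spread between the 2 day 6 controls), and of 336 ratios of single genes 309 did. At day 6, the 8 genes 2-fold higher in the knockdown became 4 with a minimum of 5 FPKM, 5 with 1 FPKM in both columns, 5 at 4-fold and 4 against the control of the USP10 table. The median of 2.10 became 1.50, 1.44 and 0.80 under the first, the second and the last of these, and 1.27 with a pseudocount of 1. At day 8, the single gene 2-fold higher became 0 with a minimum of 5 FPKM, 4 with no minimum, 5 with housekeeping centring and 0 at 4-fold. In the USP10 table, 3 genes became 5 with no minimum, and 6 with a median of 1.77 (0.75 before) against the other day 6 control. At day 0, 0 became 1 with no minimum, Psmb9 against a value of 0. Fewer genes pass under the higher minimums by construction, and for the change of control the cause was not tested. Of these alternatives, only 1 FPKM in both columns has a share of all genes beside it (12.5% at day 6, 7.12% with USP10). The other counts cannot be read as particular to these genes. No paired analysis was possible because the tables hold no replicate values, and for the same reason no replicate could be left out. Depth limits Psmb8, Psmb9 and Nlrc5, whose controls rest on 0 to 10 fragments at day 6, day 8 and in the USP10 table.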
